A study of Mus musculus with 39 samples.

Results

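Cluster 4 is a group of 2038 regions among the 20811 consensus peaks of NOTCH and RBPJ binding in the embryonic mouse cortex, 9.79% of those on the nuclear chromosomes. A consensus peak is the merged span of overlapping peaks from 4 peak lists, and the members are those given cluster number 4 by the authors. They were thus chosen by binding intensity, since the 8 clusters were made by k-means on intensities of the same samples, which the file does not hold. The binding calls described here come from those samples too, so they are given as a description and nothing is read from them.

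Binding was mapped by Targeted DamID (TaDa), which fuses a protein to the methylase Dam and reads binding from methylated GATC sites around it. Plasmids were electroporated into the cortex of wild-type MF1 embryos at E13.5 and tissue was collected at E14.5. The Hes5 promoter drove the fusions in radial glial cells (RGCs), the neural stem cells of the cortex, and the Tα1 promoter drove them in intermediate progenitor cells (IPCs), so each cell type is as specific as its promoter. RBPJ, as the human RBPJ1 protein, was profiled in 3 samples of each cell type. NOTCH was profiled in 4 samples of each, as the intracellular domain NICD in all 4 IPC samples and in 2 RGC samples, and as NdECD, a form without the extracellular domain, in the other 2 RGC samples. Both forms are active without ligand, and the cells kept their own Notch pathway. The controls expressed Dam alone (5 samples in RGCs, 4 in IPCs) and served both proteins of a cell type. Each of the 4 lists stands for all samples of a condition and gives positions only, with no height and no value of a single sample. Depth and spread between replicates are therefore unknown here, and intervals on shares are Wilson 95% intervals that cover counting error over peaks. Peaks are not replicates, and neighbouring peaks of a gene are not independent.

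RBPJ is the DNA-binding factor of the Notch pathway. When a ligand of the Delta or Jagged families engages a NOTCH receptor, the intracellular domain is released, enters the nucleus and joins RBPJ and a Mastermind protein to switch on targets, of which the Hes and Hey repressors are the best known. In the cortex this signal keeps RGCs in the progenitor state, whereas without NOTCH RBPJ can hold the same genes silent.

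RBPJ recognises the core word TTCCCA, and a pair of such words facing each other across a short spacer is known as a sequence-paired site, at which 2 complexes can sit together. Of the 2038 members, 6 held such a pair with a spacer of 15 to 17 bases, counted here as TGGGAA followed by TTCCCA on the same strand. In windows of equal length there was 1 pair in the central 500 bp of the members (0.0491%, interval 0.00867 to 0.278), and 0.0275% of all genome windows of that size held one. The pair of the Fjx1 member, with 16 bases between the words, is not shown because it overlaps an untranslated exon. The other 5 are shown for their paired words. They are followed by a window with 3 words from the Msi2 member, which held 13 words, 5 of them in the longer form TTCCCAC. Each window has 200 bases of the plus strand of GRCm38, 5′ to 3′, with TTCCCA and its reverse complement in capitals. No annotated exon of a protein-coding gene lies inside.
Pou3f3, chr1:42278210-42278409: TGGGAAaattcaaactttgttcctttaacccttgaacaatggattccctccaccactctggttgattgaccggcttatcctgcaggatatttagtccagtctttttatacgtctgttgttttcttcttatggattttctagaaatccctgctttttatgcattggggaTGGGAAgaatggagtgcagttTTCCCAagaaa
Opcml, chr9:28058562-28058761: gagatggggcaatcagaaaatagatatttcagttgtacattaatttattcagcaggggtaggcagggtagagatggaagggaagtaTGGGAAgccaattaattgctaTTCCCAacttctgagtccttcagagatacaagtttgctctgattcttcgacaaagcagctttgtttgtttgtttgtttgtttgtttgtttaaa
Cc2d2a, chr5:43666680-43666879: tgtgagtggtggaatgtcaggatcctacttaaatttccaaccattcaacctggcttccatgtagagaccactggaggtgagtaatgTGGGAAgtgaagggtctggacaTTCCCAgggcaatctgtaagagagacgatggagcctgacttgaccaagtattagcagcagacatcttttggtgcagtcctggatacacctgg
Lrig1, chr6:94774186-94774385: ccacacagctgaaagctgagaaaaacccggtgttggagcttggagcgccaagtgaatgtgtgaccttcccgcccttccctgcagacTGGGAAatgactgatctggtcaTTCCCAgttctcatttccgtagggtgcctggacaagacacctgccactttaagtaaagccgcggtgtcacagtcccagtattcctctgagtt
Cfap54, chr10:92837111-92837310: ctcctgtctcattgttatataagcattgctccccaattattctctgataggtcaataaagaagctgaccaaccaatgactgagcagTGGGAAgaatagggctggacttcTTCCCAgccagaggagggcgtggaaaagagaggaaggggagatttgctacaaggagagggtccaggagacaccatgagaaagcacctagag
Msi2, chr11:88585036-88585235: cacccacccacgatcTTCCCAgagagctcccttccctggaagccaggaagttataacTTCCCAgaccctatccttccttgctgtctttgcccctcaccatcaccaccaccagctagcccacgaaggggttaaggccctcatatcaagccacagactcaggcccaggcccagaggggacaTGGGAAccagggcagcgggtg

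The spacer was 15 bases at Pou3f3 and Opcml, 16 at Cc2d2a and Lrig1, and 17 at Cfap54. The Pou3f3 window lay 417 kb upstream of its gene, which encodes a POU factor of upper-layer neurons, and the Lrig1 window lay 74.0 kb from the gene of an inhibitor of growth factor receptors. Both were intergenic. The windows of Opcml, a cell adhesion protein, of Cc2d2a, a protein of the ciliary transition zone, of Cfap54 and of Msi2, a Musashi RNA-binding protein, were intronic. Pairs at Pou3f3, Opcml, Cc2d2a, Lrig1 and Fjx1 lay in members called for both RBPJ and NOTCH in RGCs, and the Cfap54 member was called for RBPJ only. Members with both calls made up 1601.6 of the 4489.7 kb of cluster 4. They held 0.00312 pairs per kb (exact Poisson interval 0.00101 to 0.00729), an interval that includes the 0.00134 of all members. Members with RBPJ only held 0.000461 pairs per kb (1.17e-05 to 0.00257). A link between pairs and joint calls was not tested. The Lao1 member, 3731 bp long and called for RBPJ only, also held 5 words of the longer form, among 11 in all. At Cfap54, 1 of the 2 words touched bases that the reference marks as repeats.

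Windows of Hes1, Helt and Notch4 are shown because the members belong to genes of the pathway itself. Cluster 4 had 6 members whose nearest gene was a Notch receptor, a ligand or a Hes or Hey repressor, and 5 of them held the RBPJ word. The sixth, 1055 bp long and 2.92 kb upstream of the ligand gene Dll4, held none. All 2038 members together held 5252 such words, 1.17 per kb, so nothing about these genes is read from the 5 of 6.
Hes1, chr16:29854634-29854833: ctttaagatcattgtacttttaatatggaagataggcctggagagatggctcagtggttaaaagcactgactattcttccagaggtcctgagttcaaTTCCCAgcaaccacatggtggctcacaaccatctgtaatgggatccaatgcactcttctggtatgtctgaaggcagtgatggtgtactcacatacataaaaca
Helt, chr8:46341049-46341248: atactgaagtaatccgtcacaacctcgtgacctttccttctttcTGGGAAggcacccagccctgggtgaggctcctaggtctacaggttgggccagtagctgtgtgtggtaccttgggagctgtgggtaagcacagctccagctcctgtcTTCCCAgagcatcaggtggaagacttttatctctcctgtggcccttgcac
Notch4, chr17:34588504-34588703: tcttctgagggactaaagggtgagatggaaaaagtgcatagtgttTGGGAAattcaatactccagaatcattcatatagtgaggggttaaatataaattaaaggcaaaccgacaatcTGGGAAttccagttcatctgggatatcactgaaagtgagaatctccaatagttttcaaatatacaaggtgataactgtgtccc

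At Notch4 all 7 words lay outside repeats. The Helt member held 4 words, 1 of them in a repeat. The member of Hes1 lay 208 kb upstream of the gene, and both of its words lay in masked repeats, which made up 170 of the 200 bases shown. A match to these letters is not a measured site.

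By peak calls the members were mostly RBPJ sites. An RGC RBPJ peak was called at 1650 members (81.0%, interval 79.2 to 82.6), against 67.6% of all consensus peaks, and an RGC NOTCH peak at 850 (41.7%, 39.6 to 43.9), against 17.7%. Both were called at 479 members (23.5%, 21.7 to 25.4; 7.77% of all), RBPJ without NOTCH at 1171 (57.5%; 59.9% of all) and NOTCH without RBPJ at 371 (18.2%; 9.96% of all). The cluster is named for joint NOTCH and RBPJ binding in RGCs, which rests on intensities, and by calls most members did not have both. A region can carry signal below the calling threshold, and this was not tested since the files hold no intensities.

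**Figure D1:**
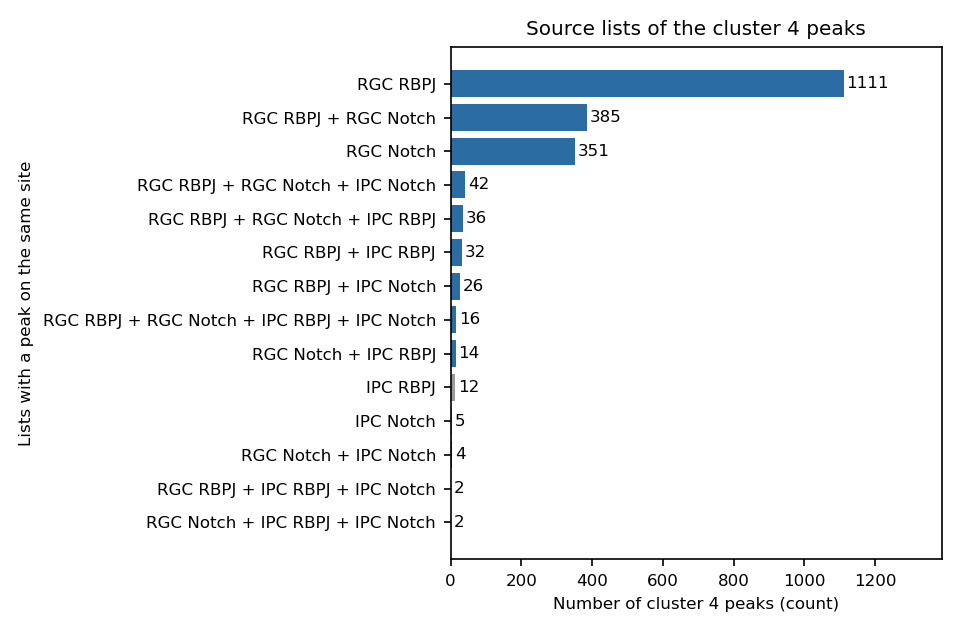
Number of cluster 4 peaks (horizontal axis, count) for each combination of lists with a peak on the same site (vertical axis), blue where an RGC list is among them and grey where none is. RGC RBPJ alone led with 1111 members, followed by both RGC lists with 385 and RGC Notch alone with 351.

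Calls in IPCs were few. An IPC RBPJ peak was called at 114 members (5.59%; 26.2% of all consensus peaks) and an IPC NOTCH peak at 97 (4.76%; 10.1% of all), and 191 members (9.37%; 33.9% of all) had at least 1 of the pair. Their share differed by RGC call, as did width. An IPC peak was called at 94 of the 479 members with both RGC calls (19.6%, 16.3 to 23.4), at 60 of the 1171 with RBPJ only (5.12%, 4.001 to 6.54) and at 20 of the 371 with NOTCH only (5.39%, 3.52 to 8.18). Members with an IPC call had a median width of 3463 bp and those without one 1795 bp, and the part of width in these shares was not tested. Only 17 members had no RGC call, 12 of them with an IPC RBPJ peak and 5 with an IPC NOTCH peak. They included sites at Foxo3, a forkhead factor, at Dkk2, a secreted Wnt inhibitor, and at Nfib, a nuclear factor I gene, and these 3 were named after their values were seen.

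All 4 lists had a peak at 16 members (0.785%, 0.484 to 1.27; 0.678% of all consensus peaks). Those that lay over a start site were at Nrg1, which encodes the growth factor neuregulin, at Tbx18, a T-box factor, and at Tcf4, a bHLH factor. The members of Nuak2 and Samd5 lay 0.587 and 1.03 kb from a start site. Those of Arhgef16, Zbtb20, Bmper, Zbtb18, 4932438H23Rik, Atp9b and Ptn lay 8.24 to 48.8 kb away, and those of Tex13c2, Rgs6, Mycn and Ccdc3 lay 144 to 258 kb away. Zbtb18 encodes a zinc finger repressor of the cortex, Mycn a Myc-family oncogene and Bmper a modulator of Bmp signalling.

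Where both proteins were called in RGCs, their peaks overlapped by construction, since consensus peaks merge overlapping peaks, and the degree is given here. The RBPJ peaks in the 479 members had a median span of 2563 bp and the NOTCH peaks 2554 bp, and they shared a median of 2005 bp. Their midpoints were a median of 269.5 bp apart (quartiles 70.5 and 621). The NOTCH peak lay within the RBPJ peak at 126 members, the RBPJ peak within the NOTCH peak at 157, both had the same span at 15, and the ends were staggered at 181. Neither protein had the wider peak as a rule, with RBPJ wider at 225 members and NOTCH at 239. GATC sites set how finely TaDa can place a peak, and members had 3.38 of them per kb.

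The members had a median width of 1905.5 bp (quartiles 1098 and 2972, range 213 to 11275) and covered 4.49 Mb. The median was 2415 bp in cluster 1, 1602 bp in cluster 2 and 2278.5 bp in cluster 5, which are the clusters compared here. By calls, cluster 1 was mostly NOTCH in RGCs (70.8% of its peaks), 62.0% of cluster 2 had an IPC call, and cluster 5 was mostly RBPJ in RGCs (97.6%). Members with both RGC calls had a median width of 3108 bp, those with RBPJ only 1621 bp and those with NOTCH only 1654 bp. A consensus peak spans all peaks merged in it, and the RBPJ peaks alone had a median span of 2563 bp in the members with both.

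**Figure D2:**
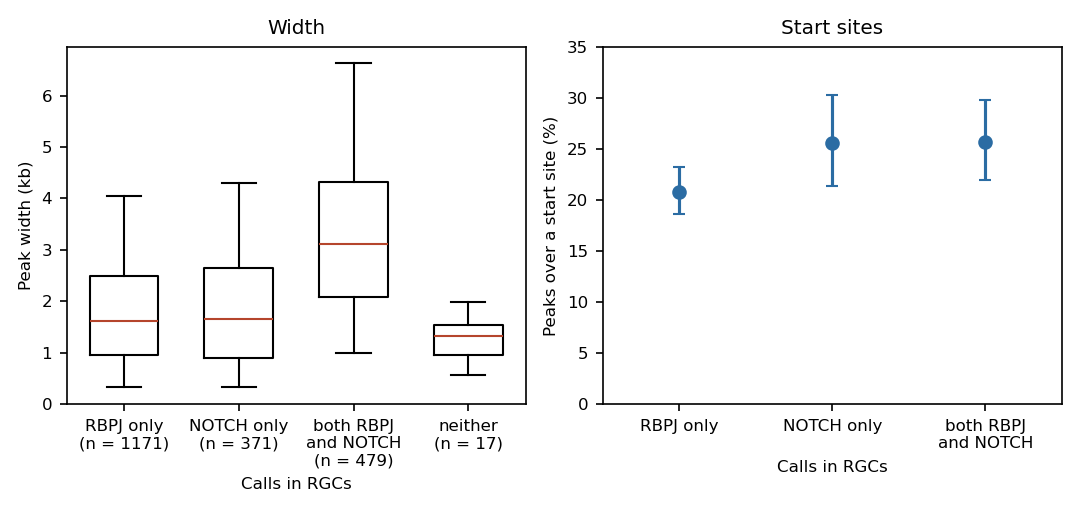
Left, width of cluster 4 peaks (kb) by the proteins called in RGCs, with boxes for quartiles, red lines for medians and whiskers from the 5th to the 95th percentile. Right, share of each group that covered a start site (%, points with Wilson 95% intervals), without the 17 peaks that had no RGC call. Members with both calls were the widest, with a median of 3.11 kb, and the 3 start site shares ran from 20.8% to 25.7%.

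The 5 widest members covered or adjoined genes of several roles. The member of Tpm1, a tropomyosin gene, was 11275 bp long (chr9:67040003-67051277) and that of Ier5, an immediate early gene, was 9889 bp long (chr1:155091451-155101339). Both lay over a start site of the gene. Intronic members lay in Msi2 (9977 bp), Ppp2r2b, which encodes a phosphatase subunit (9025 bp), and Prdm16, a regulator of RGC identity (8987 bp). RBPJ and NOTCH were both called in RGCs at 4 of these, and Prdm16 had RBPJ only.

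The share of members over start sites ranked second among the 8 clusters, close to that of cluster 6. Start sites are those of every annotated transcript of a gene, so some lie well inside it, as at the Tenm4 and Zbtb20 members over one. A transcription start site of a protein-coding gene (GENCODE M21) lay within 467 members (22.9%, 21.1 to 24.8), as did one in 14.2% of the peaks in cluster 1, 14.4% of those in cluster 2, 19.9% of those in cluster 5 and 15.9% of all other consensus peaks. The difference was 8.73 percentage points to cluster 1 (Newcombe 95% interval 6.39 to 11.1), 8.47 to cluster 2 (5.54 to 11.2), 2.97 to cluster 5 (0.846 to 5.15) and 7.06 to all others (5.20 to 8.999). Cluster 7 had a higher share, 29.7% (27.8 to 31.6), and cluster 6 had 21.2% (19.6 to 23.0), an interval that overlaps that of cluster 4. Members were narrower than the peaks of clusters 1 and 5, and among peaks of at least 1000 bp the difference to cluster 5 was 4.94 points (2.44 to 7.52).

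**Figure D3:**
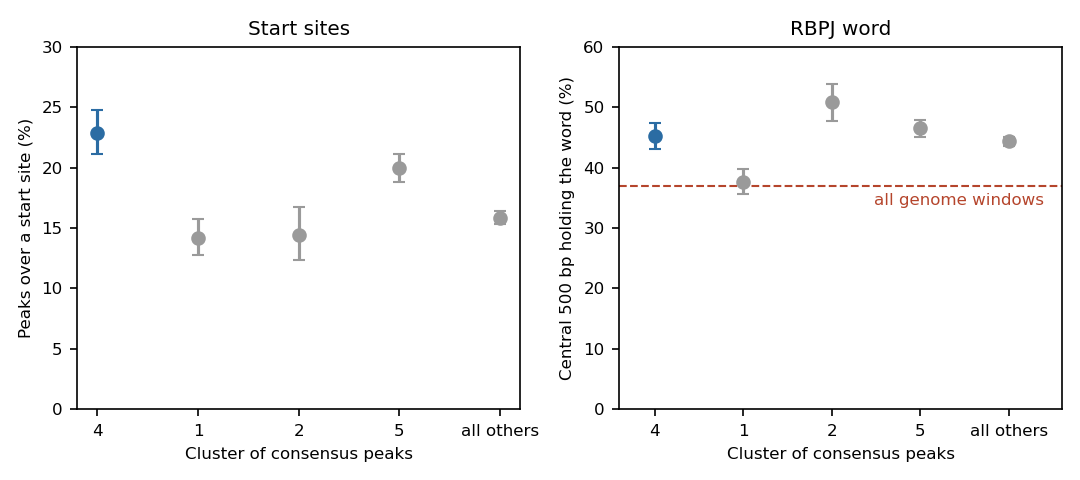
Left, share of peaks over a start site (%); right, share of peaks whose central 500 bp held the RBPJ word (%), for cluster 4 (blue), clusters 1, 2 and 5 and all other consensus peaks (grey), with Wilson 95% intervals. Cluster 4 had the highest start site share of those shown, 22.9%, and its word share of 45.3% lay above the 37.0% of all genome windows (dashed line) and between clusters 1 and 2.

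Start sites were covered by members of each call. The share was 25.7% (22.0 to 29.8) with both RGC calls, 25.6% (21.4 to 30.3) with NOTCH only and 20.8% (18.6 to 23.3) with RBPJ only. Both against RBPJ only differed by 4.84 points (0.414 to 9.50), with widths that also differed. Of the 467 members, 433 held start sites of 1 gene, 33 of 2 and 1 of 3.

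Away from start sites the members were spread widely. The median distance to the nearest start site was 16036 bp over all members (quartiles 208 and 73799), and 36332 bp over the 1571 that did not cover one. Within 5 kb lay 37.2% and within 100 kb 80.2%. By their midpoint, 48.1% were intronic, 9.96% exonic and 34.6% intergenic, and 20.1% lay in the 5 kb upstream of a start site. These upstream stretches can run through the same gene or other genes. All other consensus peaks were more often intergenic (39.1%) and less often exonic (7.85%), with differences of -4.55 points (-6.70 to -2.35) and 2.11 points (0.826 to 3.54). Off start sites, 46.4% (43.9 to 48.9) of the members lay on the upstream side of the nearest start site, which can place them inside the gene. The 5 farthest, named after their values were seen, were nearest to Celf4, Tenm4, Manea, Khdrbs3 and Lrrtm3, at 1034 to 2200 kb.

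For 19 genes on the lists used here, the start site of a transcript lay in a cluster 4 member. For the Notch pathway they were Notch4 (3810 bp, RBPJ only), the ligand Dll1 (696 bp, NOTCH only), Numb, an antagonist of NOTCH (4483 bp, both), Dtx3 of the Deltex ubiquitin ligases (3375 bp, both) and Fbxw7, whose ubiquitin ligase degrades NICD (1384 bp, NOTCH only). Among receptors of Fgf they were Fgfr1 (2909 bp) and Fgfr2 (4418 bp), both RBPJ only. The Bmp effector Smad5 (1588 bp) had RBPJ only, and the inhibitory Smad7 (3175 bp) had both.

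The rest of the 19 were transcription and growth regulators. Sox1, a marker of neural progenitors, had a member of 8436 bp with both proteins, and Lmo4 had one of 5349 bp with both. RBPJ without NOTCH was called in RGCs at Id1 (4826 bp), an inhibitor of bHLH factors, Cux1 (6303 bp) and Foxp1 (1993 bp), which mark cortical neurons, Zfpm2 (3090 bp), the kinase gene Gsk3b (3267 bp) and Rbl1 (5117 bp), a pocket protein of the cell cycle. Wwtr1 (2371 bp), which encodes the Hippo effector TAZ, had NOTCH only. Tcf4 completed the set, with all 4 lists called.

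The members were nearest to 1628 protein-coding genes, 7.43% of 21911. Most of these, 1340, had 1 member, 216 had 2 and 72 had 3 or more, up to 8. For 468 of the genes all consensus peaks were in cluster 4, and 25 of these had more than 1 peak, among them Gc with 3. Gsk3b, a kinase that limits Wnt signalling, had its 2 peaks in cluster 4, and these genes were named after their counts were seen. Clusters 4 and 5 shared 683 nearest genes, 42.0% of the genes of cluster 4 and 20.2% of those of cluster 5. With cluster 1 cluster 4 shared 495 (30.4% and 28.7%) and with cluster 2 272 (16.7% and 32.9%). These overlaps stand beside gene sets of unlike size. Of the 8492 genes nearest to any consensus peak, 3386 had a peak of cluster 5, 1726 of cluster 1 and 826 of cluster 2.

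Zbtb20, which encodes a zinc finger repressor that acts in hippocampal and glial development, had the most members, 8 of its 19 consensus peaks. Of these, 4 had RBPJ only in RGCs, 2 had NOTCH only and 2 had both. Sox4, a SoxC factor of new neurons, had 7 of 24, all of them at least 60.5 kb from its start site. Next came Sema6a, a guidance cue (6 of 19), Tenm4, a teneurin (6 of 28), Magi1, a junction scaffold (6 of 25), and Auts2, a regulator of neuronal development (6 of 47). At Auts2 all 6 had RBPJ only in RGCs and no IPC call.

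Genes with 5 members were Ptn, which encodes the secreted growth factor pleiotrophin (of 14 consensus peaks), Tmem161b (of 15), Id4, an inhibitor of bHLH factors (of 22), Nfib, a factor of gliogenesis (of 29), Tox3 (of 20) and Rnd3, which acts in neuronal migration (of 16). At Id4 all 5 had RBPJ only, and 4 of them lay 158 to 246 kb upstream. Ptn differed, with 3 of its 5 called for both RGC proteins. In all, 29 genes had 4 members or more, and those with 4 that covered the most bases were Msi2 with 25 consensus peaks, Tmem182 with 28 and Irf2bp2, a corepressor, with 8, so that 50% of the Irf2bp2 peaks were in cluster 4. None of these gene totals depends on expression, which was not analysed here.

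**Figure D4:**
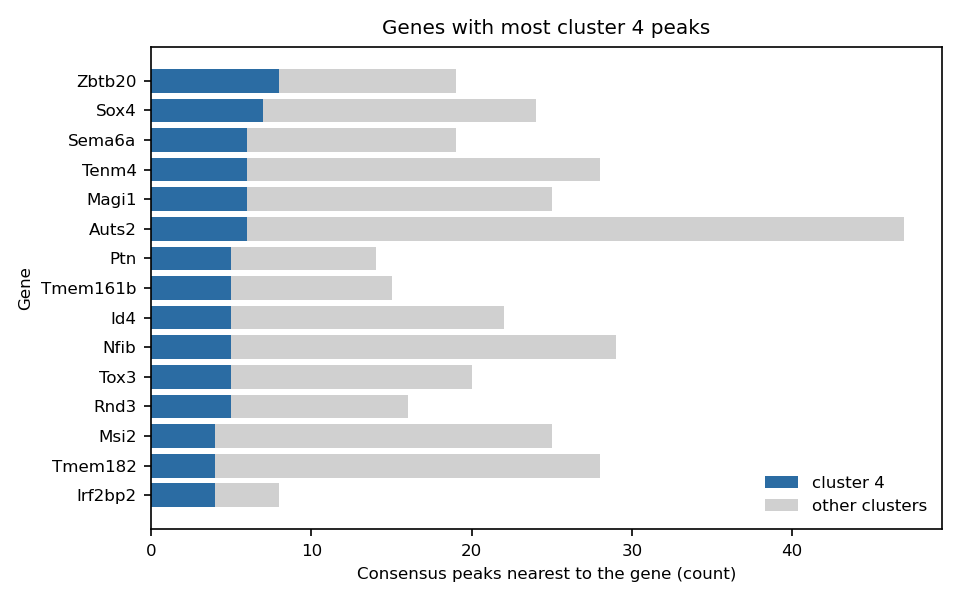
Consensus peaks nearest to each gene (horizontal axis, count) for the 15 genes with the most cluster 4 peaks (vertical axis, ties at 4 peaks broken by summed width), with cluster 4 in blue and all other clusters in grey. Zbtb20 had 8 cluster 4 peaks of 19, while Auts2 had 6 of 47 and Irf2bp2 4 of 8.

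The gene lists were read against the share of all nuclear consensus peaks in cluster 4, 9.79%. In each of the 14 lists the Wilson interval held that value, so no list stood apart by this count. By gene, 7.43% of all protein-coding genes had a member, beside 52.0% (33.5 to 70.0) of the radial glia markers and 69.6% (49.1 to 84.4) of the genes of neurons and cortical layers. Every gene of both lists had a consensus peak of some cluster, as had 8492 of the 21911 protein-coding genes, and 1628 of these 8492 had a member. The radial glia markers had 185 consensus peaks at 25 genes and the neuron and layer genes 216 at 23, beside 20809 at the 8492. The part of peak number in these shares by gene was not tested. Of the 11 Notch receptors and ligands, 3 had a member (3 of 35 consensus peaks, 8.57%), namely Notch4, Dll1 and Dll4, while Notch1, the main receptor of RGCs, had none among 12. Of 28 modulators and cofactors, 6 had one (7 of 52, 13.46%). They were the coactivator Maml3 with 2, Spen, a corepressor of RBPJ, with RBPJ only, and Nepro, Numb, Dtx3 and Fbxw7. Rbpj and the feedback inhibitor Nrarp had 3 consensus peaks each and none in cluster 4. Of 12 Hes and Hey repressors, 3 had a member (3 of 32, 9.38%), and Hes1, Hey1 and Helt each had both proteins called in RGCs. Hes5 had none among 3 peaks.

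Among bHLH factors 7 of 22 genes had a member (12 of 84 peaks, 14.3%), and besides Id4 they were Tcf4 with 2 and Id1, Id2, Olig2, Neurog2 and Neurod6 with 1 each. The member of the proneural gene Neurog2 (3510 bp, 17.3 kb downstream) and that of Neurod6 (3408 bp) had RBPJ only, the Olig2 member (628 bp) had NOTCH only, and the Id2 member (7439 bp, 25.6 kb upstream) had both. Of 25 radial glia markers, 13 had a member (19 of 185, 10.3%). Sox2, Sox9, Gli3, Prdm16, Ptprz1 and Emx2 had 2 each. The Sox2 members lay 451 and 463 kb from the gene and those of Sox9 209 and 288 kb. IPC markers had 2 of 12 genes (2 of 32, 6.25%), Neurog2 and Ppp1r17. Genes of neurons and cortical layers had 16 of 23 (27 of 216, 12.5%), led by Nfib with 5, and Pou3f3 and Foxp1 with 3 each. Lists overlap, and among genes with a member Neurog2, Neurod6, Hes1, Gli3 and Fgfr3 stand on more than 1.

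In signalling pathways, Wnt genes had a member at 9 of 56 (12 of 126 peaks, 9.52%), with 2 each at the nuclear effector Tcf7l2, Gsk3b and the ligand Wnt5b. Hedgehog genes had 3 of 14 (5 of 90, 5.56%), the effector Gli3 and the coreceptor Gas1 with 2 each and the coreceptor Boc with 1. Fgf genes had 6 of 26 (10 of 67, 14.9%), led by Fgfr2 with 4 and the ETS factor Etv1 with 2. Bmp and Tgfb genes had 6 of 30 (6 of 81, 7.41%), with 1 each, among them the receptor Bmpr2, Smad2 and the antagonist Nog. Hippo genes had 5 of 22 (10 of 65, 15.4%), led by the DNA-binding effector Tead1 with 4 and the protocadherin Fat3 with 3. Cell cycle genes had 5 of 26 (9 of 68, 13.2%), Cdk6 with 3, Myc and Mycn with 2, and Cdkn1c and Rbl1 with 1. Markers of microglia and endothelium, cells outside the neural lineage, had 2 of 15 (2 of 13, 15.4%), Cdh5 and Rgs5, with the Cdh5 member 477 kb from its gene.

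**Figure D5:**
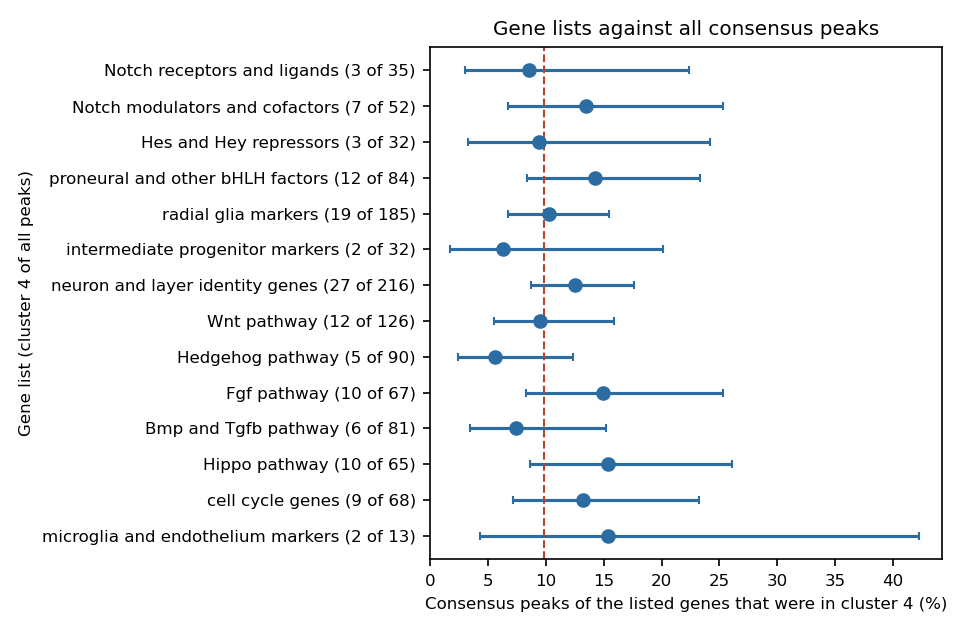
Share of the consensus peaks of each gene list that were in cluster 4 (%, points with Wilson 95% intervals), with the counts beside each list and all nuclear consensus peaks, 9.79%, as the dashed line. Every interval crosses the line, from Hedgehog genes at 5.56% to Hippo genes at 15.4%.

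Cluster 4 members rarely lay in rows. The median gap to the nearest other member, on either side, was 235344 bp (quartiles 73015 and 616256, smallest 397). Within 50 kb of another were 386 members (18.9%, 17.3 to 20.7), beside 17.7% for cluster 1, 14.8% for cluster 2 and 27.2% for cluster 5, which has more peaks. The 386 formed 185 runs, of which 12 had at least 3 members and the longest had 5. The consensus peak nearest to a member, a median of 20862.5 bp away, was itself in cluster 4 in 11.9% (10.6 to 13.4), against 9.79% of all consensus peaks. It was in cluster 8 in 10.8% (9.52 to 12.2) against 14.4%. For cluster 1 the nearest consensus peak was in cluster 1 in 12.6% against 10.5%, and in cluster 8 in 12.3%. For cluster 2 it was in cluster 2 in 7.17% against 4.76%, and in cluster 8 in 9.90%. For cluster 5 it was in cluster 5 in 23.3% against 22.5%, and in cluster 8 in 13.6%.

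Both runs of 5 lay at genes named above. The run at Ptn spanned 127 kb (chr6:36754667-36881598) from inside the gene to the neighbouring Dgki, and 6 of the 11 consensus peaks in it belonged to other clusters. Its first member was called in all 4 lists and the last in IPC NOTCH only. The run at Zbtb20 spanned 50.9 kb within the gene (chr16:43461664-43512545), and all 5 consensus peaks in it were in cluster 4. There 3 members were called for RBPJ and 2 for NOTCH, with none called for both. The runs of 3 with the most bases in members lay at Apmap and Acss1 (59.6 kb), at Tarbp1 and Irf2bp2 (72.5 kb) and at Cd247 (40.8 kb).

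Over the autosomes and chromosome X, the share of consensus peaks in cluster 4 ran from 5.41% on X (22 of 407) to 12.2% on chromosome 16 (94 of 770).

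The sequence of the members was rich in G and C, 46.7% of bases against 41.7% genome-wide, and close to the 46.1% of all other consensus peaks. CpG dinucleotides, which cluster at promoters, stood at 0.365 of the number that the base composition would give, against 0.304 in all other consensus peaks and 0.268, 0.336 and 0.314 in clusters 1, 2 and 5. The 467 members over start sites had 0.555 and the other 1571 had 0.259, so the level moved with start sites.

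The RBPJ word occurred in the members at 1.17 per kb (exact Poisson 95% interval 1.14 to 1.20). Cluster 1 had 0.998 per kb, cluster 2 had 1.30, cluster 5 had 1.24 and all others had 1.17. In windows of equal length, the central 500 bp, 45.3% (43.2 to 47.5) of the members held TTCCCA, against 37.0% of all windows of that size in the genome. Cluster 1 had 37.7%, a difference of 7.65 points (4.67 to 10.6), and cluster 2 had 50.8%, a difference of -5.50 points (-9.27 to -1.70). Cluster 5 and all others had 46.5% and 44.4%, with intervals of the difference from -3.79 to 1.39 and from -1.34 to 3.21 points. The longer TTCCCAC was in 13.9% of members and 8.61% of genome windows. In clusters 1, 2 and 5 it was in 8.56%, 17.0% and 14.1% of peaks and in all others in 12.9%, so cluster 4 was close to consensus peaks in general.

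Within cluster 4 the share differed by call. The word was in the central 500 bp of 48.2% of members with RBPJ only, 42.0% with NOTCH only and 40.7% with both. RBPJ only exceeded NOTCH only by 6.16 points (0.331 to 11.8), and the difference of both to RBPJ only was -7.50 points (-12.7 to -2.20). The members with both were wider, so a fixed centre covers less of each. Over their whole length they held 1.148 words per kb, those with RBPJ only 1.22 and those with NOTCH only 1.07.

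Repeats carried some of these words, as at Hes1. The reference marked 16.2% of the bases of cluster 4 as repeats, against 36.4% of the genome, and 14.4% of the 5252 words in the members touched such bases. Outside repeats the members held 1.20 words per kb (1.16 to 1.23), cluster 1 1.01, cluster 2 1.35 and the genome 0.989. With unmasked words alone, 39.3% of central windows held one, against 25.7% of genome windows. Repeats took 15.3% of the bases in the central windows and 36.4% in the genome windows, so these shares rest on unequal unmasked length. By the same count, the difference of RBPJ only to NOTCH only was 3.80 points (-1.95 to 9.37), an interval that includes 0. The difference to cluster 1 was 7.06 points (4.16 to 9.94) and that of both against RBPJ only was -6.47 points (-11.5 to -1.27).

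Words of other factors were counted on both strands in the same windows. The E-box CAGCTG, read by bHLH factors, was in 24.2% of members and 16.8% of genome windows. It was in 20.1%, 23.4% and 23.3% of the peaks in clusters 1, 2 and 5 and in 22.6% of all others, and the difference to cluster 1 alone had an interval without 0 (1.56 to 6.57 points). The homeobox word TAATTA was in 16.3% of members and 16.9% of genome windows. In clusters 1, 2 and 5 it was in 15.3%, 18.5% and 14.3% of peaks and in all others in 15.9%. Among these, the difference to cluster 5 alone had an interval without 0 (0.0997 to 3.89 points). It was in 6.64% of members over start sites and 19.2% of the others, a difference of -12.5 points (-15.3 to -9.31) beside a GC content of 51.7% and 44.7%. The nuclear factor I half-site TTGGCA was in 24.0% of members and 23.0% of genome windows. It was in 25.8%, 29.5% and 24.2% of the peaks in clusters 1, 2 and 5 and in 26.2% of all others. The intervals of the difference to clusters 1 and 5 included 0. The difference was -5.49 points to cluster 2 (-8.92 to -2.14) and -2.16 points to all others (-4.07 to -0.156). The POU word TTTGCAT, the Sox word ACAAAG and the Tead word ACATTCC were in 11.9%, 37.9% and 7.17% of members. In genome windows they were in 12.5%, 39.6% and 6.80%. For each of these words, the intervals of the difference to clusters 1, 2 and 5 and to all others included 0.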

How the data were processed

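Consensus peaks of NOTCH and RBPJ binding were read from 1 deposited file with a cluster number per peak, and their source peaks from 4 deposited peak lists. The authors aligned reads to mm10 and compared every fusion sample with every Dam-only sample using MACS2 in broad mode. Peaks past a false discovery threshold in all such comparisons of a condition were kept. The deposited values are positions in bp, other columns hold no measurement, and 0 columns hold single samples. Samples of full-length Notch, neurons and the ubiquitous promoter were not used here.

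A list peak was counted on a consensus peak from 1 bp of overlap, and the names of the lists in the file matched at every peak. Positions are counted from 1. Each peak was given the closest start site of GENCODE M21, counting every transcript of protein-coding genes, and features by its midpoint. Words were counted on both strands of the GRCm38 sequence, whose lower-case letters mark repeats. Differences in shares have Newcombe intervals at 95%. Some sequence windows are not reported here. No test was run, since no value of a replicate was available. The 2 consensus peaks on the mitochondrial genome, none in cluster 4, were left out of shares by gene, feature and sequence, but stand in the percentages of all consensus peaks with a call. Python 3.11.15, pandas 2.3.3, scipy 1.17.1, statsmodels 0.14.6 and matplotlib 3.10.9 were used, and the functions were tested on simulated peaks and sequences.

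The members and gene lists were chosen with earlier results of these data known. Named genes were the 15 with the most members (ties by summed width), up to 4 per list (with ties, more in some), those that define the pathway, the 5 widest, those called in 4 lists, listed genes with a member on a start site, the 5 runs with the most members (ties by bases in members) and the members with most paired or TTCCCAC words. Other genes are marked as named after their values were seen.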

Additional observations from a re-analysis of the deposited data

How the results depend on the processing

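No paired analysis was possible because the files hold pooled positions and no value of a single sample, and for the same reason no result was computed without a replicate. Of 57 values under other settings, 41 stayed within the interval of the reported value (for the count of genes, within 1.5 times) and none turned its direction.

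The other 16 moved as follows. With consensus peaks of at least 1000 bp, the share of members called was 82.8% (RBPJ) and 45.0% (NOTCH) in RGCs, 28.5% for both of these, and 6.88% (RBPJ) and 5.93% (NOTCH) in IPCs, and the share on a start site was 27.3%. The start site difference at this width was 9.34 points to all other clusters and 11.96 to cluster 1. With all annotated genes the median distance was 6489.5 bp and the share on a start site 26.6%. Counting start sites within 1 kb of the midpoint gave differences of 11.3 points to cluster 1 and 5.64 to cluster 5. By share of peak bases, exons took 8.03%. Members with another within the gap were 8.68% at 20 kb and 31.5% at 100 kb, and TTCCCAC had 0.275 words per kb, as looser and stricter definitions give by construction. Leaving out words in repeats was chosen after seeing the data, and it moved none of the comparisons between clusters, although the difference of RBPJ only to NOTCH only then included 0.

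Depth is unknown. Requiring an overlap of 50% changed no call, because consensus peaks are unions of the list peaks.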
